A study of Rattus norvegicus with 6 samples.

Results

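Heat shock proteins and J-domain chaperones were taken as all genes whose symbol begins with Hspa, Hspb, Hspd, Hspe, Hsph, Hsp90, Dnaja, Dnajb or Dnajc. The files listed 71 such genes among 17051 genes. The minimum for testing, an estimated count of 30 in any rat, was reached by 64 of the 71 and by 11553 genes in all. The other 7 (Hspa1l, Hspb3, Hspb9, Dnajb7, Dnajb8, Dnajc5b and Dnajc5g) stayed below 30 in every rat. By symbol, 42 genes belonged to the J-domain families and 29 carried an Hsp symbol. All 71 are called chaperones here by symbol alone, although Hspb11, Hspbap1 and Hspbp1 were placed in no chaperone class. The 71 genes were sorted by the place where the protein works: cytosol and nucleus (47 genes, 40 tested), endoplasmic reticulum (11, all tested), mitochondria (8, all tested) and other or not assigned (5, all tested).

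Molecular chaperones bind unfolded stretches of other proteins and help them to fold, to cross membranes or to be degraded. The Hsp70 proteins do this by cycles of ATP hydrolysis, which J-domain proteins start and nucleotide exchange factors such as the Hsp110 proteins complete, while Hsp90 proteins act later on clients such as kinases and hormone receptors. Small Hsps hold unfolded proteins without ATP, and the chaperonin of Hspd1 and Hspe1 encloses proteins inside the mitochondrion. Cytosolic heat shock genes are driven by heat shock factors, and the chaperones of the endoplasmic reticulum by the unfolded protein response. In the kidney, chaperones of the Hsp70 and small Hsp families are known to be abundant in the inner medulla, where salt and urea are high.

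Kidney tissue came from 6 male Sprague Dawley rats, each sequenced as its own poly(A)-selected library. The AL group (rats 61, 71 and 88) had standard laboratory chow ad libitum, labelled normal diet. The HD group (rats 64, 67 and 69) had the hyperammonemic diet, in which an amino acid mixture modelled on hemoglobin was given with the chow at 3 g per kg per day for 7 days. The age of the rats and any batch of the libraries are not given in the sources used here. The comparison asked whether the chaperone transcripts of the kidney differed between the diets. The tissue held all cell types of the kidney, so fewer cells of a type and less RNA per cell cannot be told apart.

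Total estimated counts ranged from 12499945 (rat 64) to 30466461 (rat 69). The chaperones took 1.08% to 1.30% of the counts of a rat. All pairs of rats differed beyond sampling noise (chi-square of 22.6 to 74.7 for each degree of freedom), and the common biological coefficient of variation was 0.242. Levels are given as CPM, the share of a library's counts scaled to a fixed total, on TMM-normalized library sizes where rats are compared, and as TPM, which also corrects for length, where genes are compared. The log2 fold change is HD over AL, with its standard error (SE), from edgeR's quasi-likelihood test.

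No chaperone passed an adjusted *P* value of 0.05. Of the 64 tested, 40 had a higher fitted level in the HD group and 24 a lower one, with a median log2 fold change of 0.05. Of all tested genes, 51.3% were higher, with a median of 0.0067. Scaling by library size alone, in place of TMM, moved the median of all genes to -0.07 (4220 of 11553 higher) and left 30 chaperones higher and 34 lower. Adjusted *P* values of the chaperones ran from 0.399 to 0.999, and over all tested genes edgeR called 0 (0%) at an adjusted *P* value of 0.05. At an unadjusted *P* value below 0.05, 2 chaperones were higher (Hspb8 and Dnaja3) and 0 lower, against 538 (4.66%) and 686 (5.94%) of all tested genes. DESeq2 called 0 chaperones at an adjusted *P* value of 0.05, where it called 182 genes (1.58%), and it placed Hspb8, Dnaja3 and Hspa1b below an unadjusted 0.05, where it placed 11.5% of all genes. Every HD rat lay above every AL rat for 4 chaperones (Hspb8, Dnajb14, Dnajc16 and Dnajc11), and this held for 7.25% of all genes. Every HD rat lay below every AL rat for 0 chaperones and for 7.01% of all genes. Without rat 69 of the HD group, 7 chaperones were higher and 3 lower at an unadjusted *P* value below 0.05, against 6.21% and 9.35% of the genes then tested. Without rat 61 the chaperones below 0.05 numbered 6, against 730 genes higher and 992 lower of 11550 tested. Without rat 71 they numbered 4, against 476 higher and 405 lower of 11481. Without rat 67 they numbered 3, against 497 higher and 461 lower of 11532. Without rat 64 there was 1, against 310 higher and 329 lower of 11549, and without rat 88 also 1, against 257 and 349 of 11531.

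**Figure D1:**
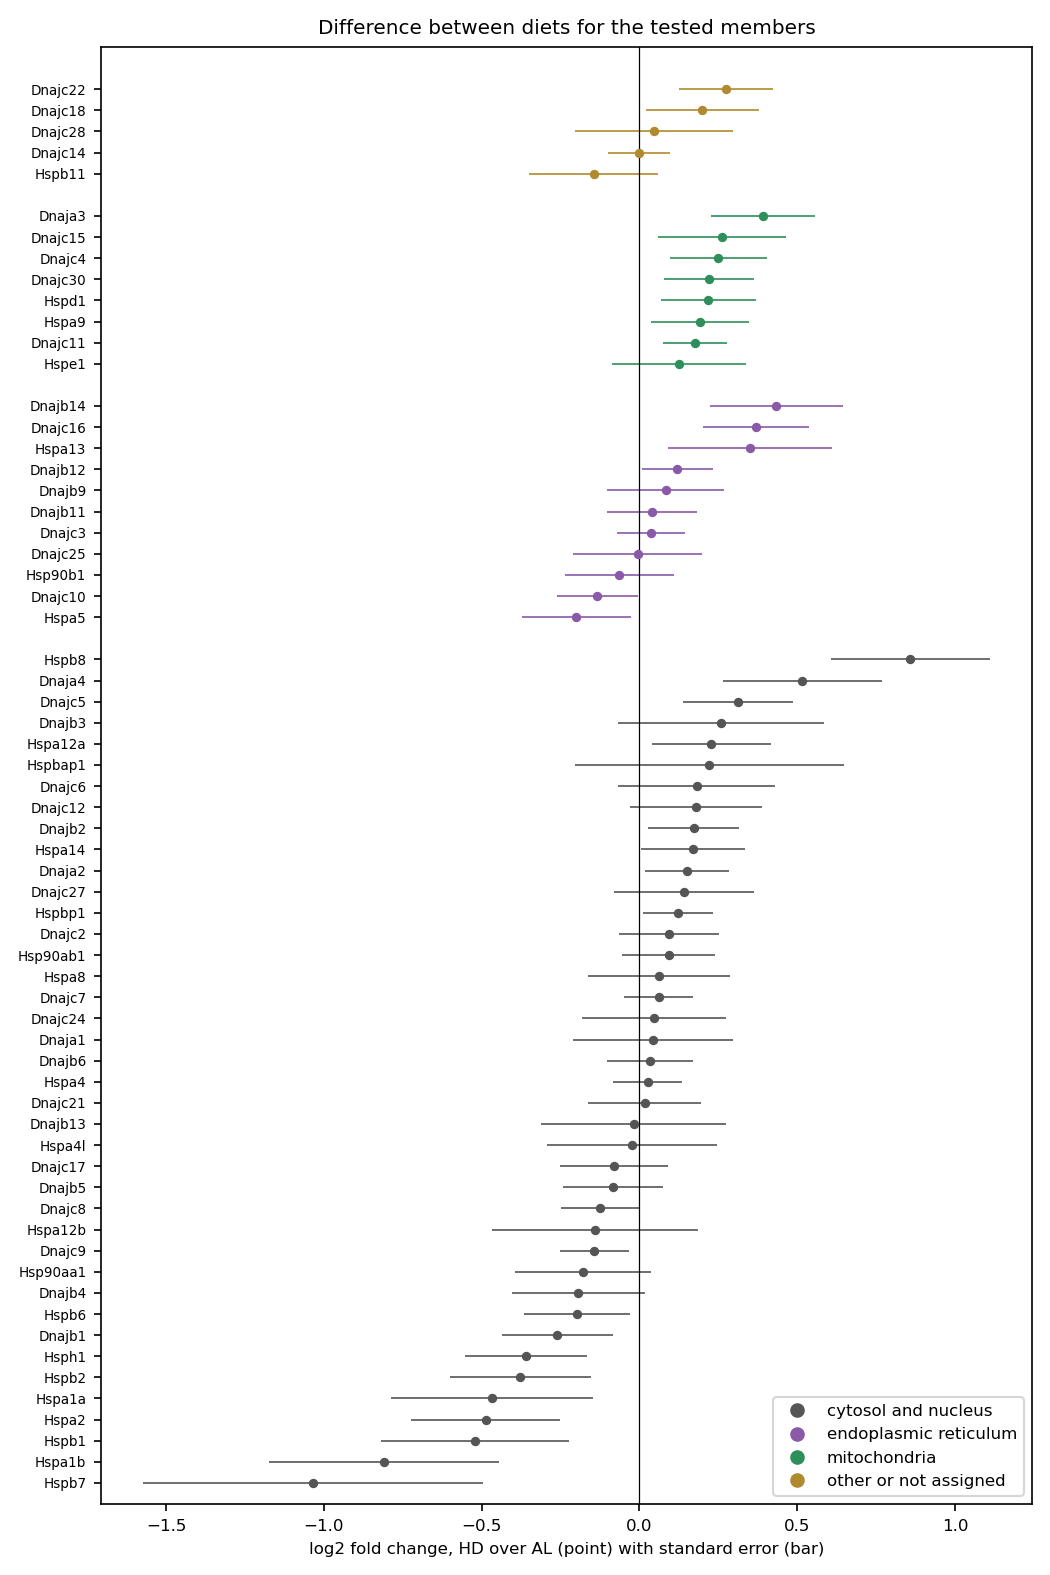
Log2 fold change of HD over AL (horizontal axis) for the 64 tested chaperones, colored by compartment, with points for the fitted value and bars for its standard error. The 8 mitochondrial chaperones all lie right of 0 (0.13 to 0.39), while those of the cytosol and nucleus spread from -1.03 to 0.86.

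By compartment, the values lay around 0 except in mitochondria, as the plot of fold changes shows. In mitochondria 8 of 8 were higher, with a median log2 fold change of 0.22 (8 of 8 and 0.14 with library size alone, 0.14 without rat 64 and 0.31 without rat 61). In the cytosol and nucleus 22 of 40 were higher, with a median of 0.03 (15 of 40 and -0.06 with library size alone). In the endoplasmic reticulum 7 of 11 were higher, with a median of 0.04 (5 of 11 and -0.04 with library size alone). Among the 5 with another or no assigned place, 3 were higher (2 with library size alone). The J-domain genes were higher in 28 of 38 (median 0.09), or 20 of 38 with library size alone, and the genes with an Hsp symbol in 12 of 26 (median -0.04), or 10 of 26. No difference between these groups was tested.

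The levels of the chaperones spanned a wide range within a kidney. Hspa8, the constitutive Hsp70 of the cytosol, had the highest mean level (3017 TPM) and made up 28.0% to 35.0% of the summed TPM of all chaperones in a rat. It was followed by the mitochondrial co-chaperonin Hspe1 (1008 TPM), the constitutive Hsp90 gene Hsp90ab1 (734 TPM), the chaperonin Hspd1 (653 TPM) and the mitochondrial Hsp70 gene Hspa9 (392 TPM). These 5 together held 58.9% to 64.5% of the chaperone TPM. Next came Hspa5 (350 TPM), the J-domain protein Dnaja1 (325 TPM), Hsp90b1 (306 TPM) and the inducible Hsp90 gene Hsp90aa1 (268 TPM). At the low end stood Dnajb13 (1.38 TPM) and the small Hsp gene Hspb7 (2.85 TPM). Over the 6 rats, Hspa8 (2399 to 3429 TPM) did not reach down to Hspe1 (861 to 1184 TPM), nor Hspe1 to Hsp90ab1 (674 to 799 TPM). Hsp90ab1 and Hspd1 overlapped in level, and so did each neighbor in the order from Hspa9 down to Hsp90aa1.

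**Figure D2:**
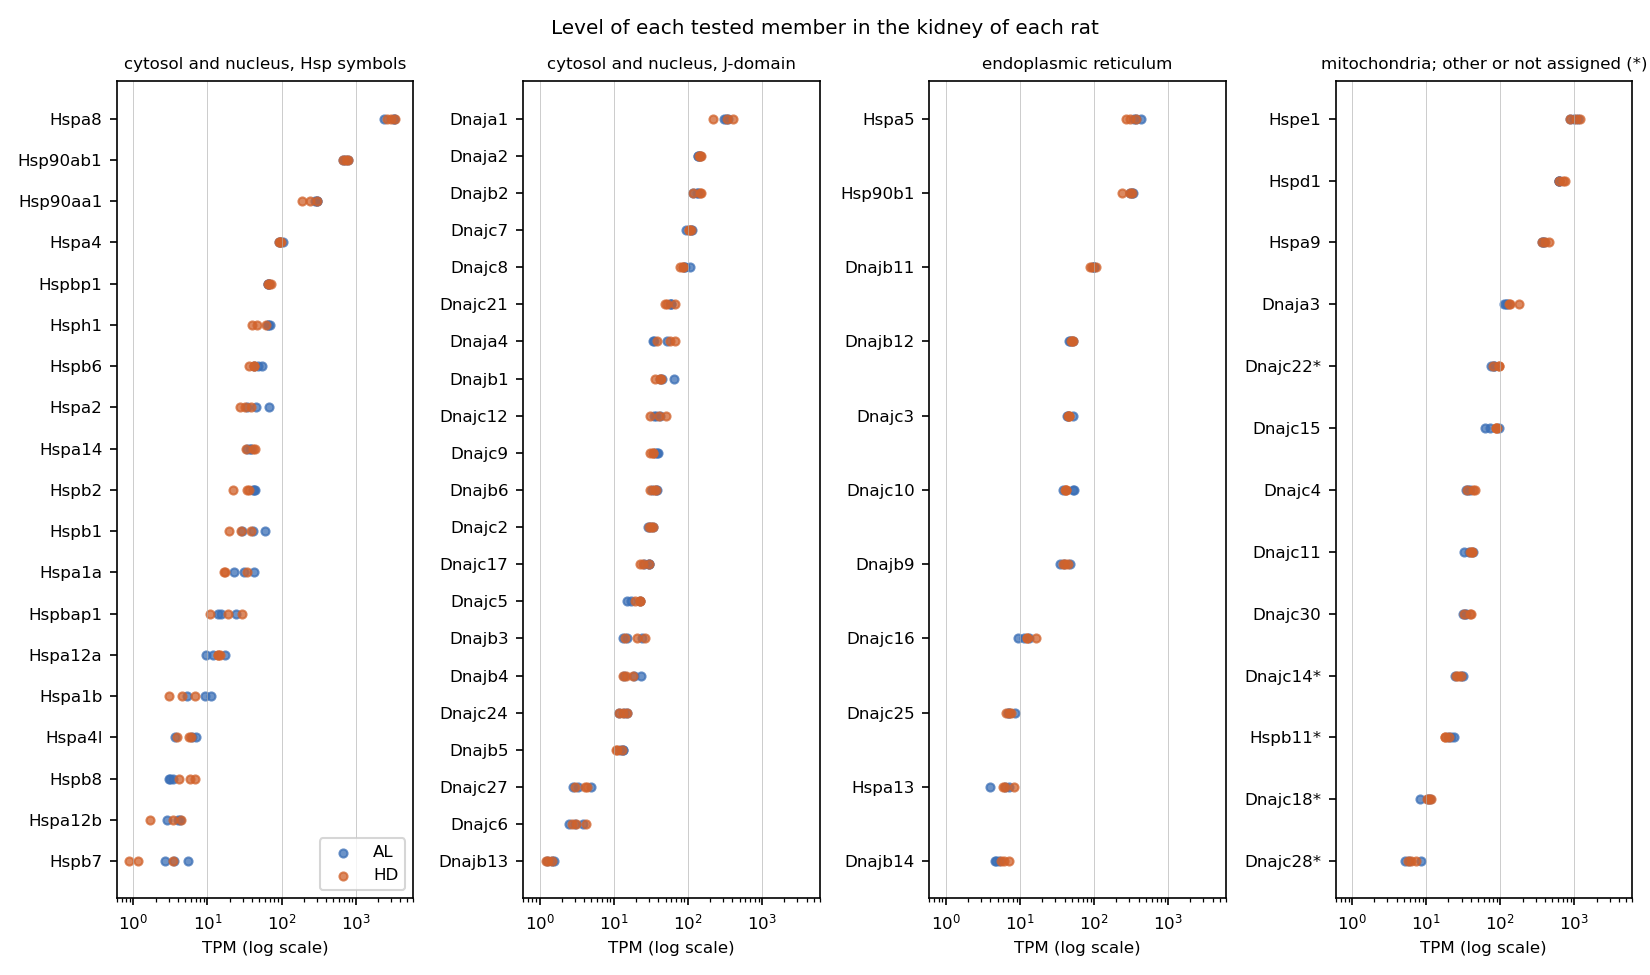
Level in TPM (log scale) of every tested chaperone in each of the 6 rats, with AL rats in blue and HD rats in orange, sorted by mean level within 4 panels by compartment. Hspa8 stands alone near 3017 TPM, and for most genes the colors overlap.

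The heat shock element, to which heat shock factors bind, was searched as TTCNNGAANNTTC on both strands in the 250 bases before the gene start. RefSeq promoters of build GRCr8 were matched by symbol for 56 of the 71 chaperones. The element was found in 4 of these 56 (7.14%), in Hspa8, Hsph1, Hspe1 and Hspd1, and in 222 of 33469 promoters overall (0.663%). Hspa8 holds 2 matches and Hsph1 holds 1. Hspe1 and Hspd1 are transcribed away from each other, and their windows share the same stretch with 2 overlapping matches. The windows of Hspa8 (chr8:50080264-50080513, plus strand), Hsph1 (chr12:10427118-10427367, plus strand) and Hspe1 (chr9:64084077-64084326, plus strand) are shown 5′ to 3′ because these genes carry the element, which is in capitals and whose nearest match ends 42, 23 and 47 bases before the start.
Hspa8: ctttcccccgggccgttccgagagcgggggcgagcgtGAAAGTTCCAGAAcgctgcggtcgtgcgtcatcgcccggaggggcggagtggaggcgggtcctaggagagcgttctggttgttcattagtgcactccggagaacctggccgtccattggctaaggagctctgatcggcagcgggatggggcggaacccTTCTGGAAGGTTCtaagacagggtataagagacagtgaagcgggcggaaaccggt
Hsph1: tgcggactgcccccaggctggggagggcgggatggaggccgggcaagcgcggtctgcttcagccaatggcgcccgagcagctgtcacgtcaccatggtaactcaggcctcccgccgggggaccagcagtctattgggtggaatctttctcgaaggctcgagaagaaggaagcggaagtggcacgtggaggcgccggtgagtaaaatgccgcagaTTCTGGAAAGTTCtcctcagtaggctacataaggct
Hspe1: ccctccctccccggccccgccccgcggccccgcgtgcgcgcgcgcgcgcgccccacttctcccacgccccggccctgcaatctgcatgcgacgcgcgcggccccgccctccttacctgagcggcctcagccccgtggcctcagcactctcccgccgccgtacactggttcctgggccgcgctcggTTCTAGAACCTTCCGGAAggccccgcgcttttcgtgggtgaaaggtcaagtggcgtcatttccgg
A match describes the letters of the window only.

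The genes with this element were not all on the same side of 0. Hspa8 measured 4845, 2899 and 4264 CPM in AL rats 61, 71 and 88, and 3737, 4926 and 3878 CPM in HD rats 64, 67 and 69. Rat 71 was lowest, rats 61 and 67 were highest, and the groups overlapped. The log2 fold change of Hspa8 was 0.06 (SE 0.225, adjusted *P* = 0.961), and -0.0053 with library size alone. The Hspa8 model in the files is 1 exon of 2100 bases on chromosome 11 of build rn5 (chr11:17153158-17155257), whereas the RefSeq promoter of Hspa8 lies on chromosome 8 of GRCr8. For the other 55 chaperones with a promoter entry the chromosomes were the same. Whether the Hspa8 count holds reads of another copy was not tested, and its level is uncertain.

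Hsph1, an Hsp110 exchange factor for Hsp70, measured 155, 132 and 149 CPM in the AL rats and 108, 146 and 86.5 CPM in the HD rats. Rats 64 and 69 lay below the AL group and rat 67 within it. The fitted log2 fold change was -0.36 (SE 0.194, unadjusted *P* = 0.104, adjusted *P* = 0.568), with -0.19 without rat 69 and -0.58 without rat 67. The other Hsp110 genes, Hspa4 (0.03, or -0.06 with library size alone) and Hspa4l (-0.02), lay near 0 on the log2 fold change scale. The Hsp90 genes of the cytosol split, with Hsp90aa1 at -0.18 (SE 0.215) and Hsp90ab1 at 0.09 (SE 0.147). Hsp90aa1 was lowest in rat 69 (321 CPM) and highest in rat 67 (579 CPM), both of the HD group.

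The stress-inducible Hsp70 genes Hspa1a and Hspa1b are near-identical neighbors. In rn5 the files place both on the minus strand of chromosome 20 (chr20:6958038-7033025 and chr20:6956234-6962151), and their exons overlap by 2307 bases. Hspa1a also shares 148 bases with Hspa1l on the other strand, and RSEM was run with default parameters, which do not use strand. The split between the genes is therefore uncertain, and their sum was used. The summed level was 115, 60.9 and 120 CPM in AL rats 61, 71 and 88, and 49.5, 55.2 and 93.0 CPM in HD rats 64, 67 and 69. Rats 61 and 88 were above the HD group, but rat 71 lay inside its range. The means were 98.5 ± 32.7 CPM in the AL group and 65.9 ± 23.6 CPM in the HD group (SD over 3 rats), with a log2 fold change of -0.58 (SE 0.320, unadjusted *P* = 0.113, adjusted *P* = 0.583). Taken alone, Hspa1a had a log2 fold change of -0.47 (-0.23 without rat 88, -0.82 without rat 69, -0.70 without rat 71) and Hspa1b of -0.81 (-0.49 without rat 61). The pair reached 1.12% to 2.81% of the CPM of Hspa8 in a rat.

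Hspa2, an intronless Hsp70 gene best known from the testis, measured 58.8, 65.5 and 103 CPM in the AL rats and 46.7, 65.9 and 49.6 CPM in the HD rats. Rat 88 was far above the others, and rat 67 was level with rat 71. Its log2 fold change was -0.49 (SE 0.237, adjusted *P* = 0.525), with -0.19 when rat 88 was left out.

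Among the small Hsps, 1 of 5 tested was higher and 4 were lower, with a median log2 fold change of -0.38 (1 and 4 also with library size alone). Hspb8, which works with the co-chaperone Bag3 in the removal of damaged proteins by autophagy, lies on chromosome 12 of rn5 (chr12:47717762-47731883, 3 exons). It measured 3.73, 3.16 and 3.77 CPM in AL rats 61, 71 and 88, and 6.88, 5.0 and 7.45 CPM in HD rats 64, 67 and 69. All HD rats were above all AL rats. The log2 fold change of 0.86 (SE 0.252) was the largest positive one among the tested chaperones (unadjusted *P* = 0.0103, adjusted *P* = 0.399), and it stayed between 0.74 and 1.01 when single rats were left out. At 4.40 TPM, Hspb8 was among the least abundant chaperones.

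The other small Hsps were placed on the other side of 0. Hspb1 (Hsp25), which protects the actin cytoskeleton, measured 14.9, 17.8 and 27.7 CPM in the AL rats and 9.68, 14.2 and 17.9 CPM in the HD rats. Rat 88 was highest and rat 64 lowest, and the groups overlapped (log2 fold change -0.52, SE 0.298, adjusted *P* = 0.596). Without rat 88 it was -0.22 and without rat 64 -0.32. Hspb7, a small Hsp of heart and muscle, measured 4.29, 2.72 and 5.89 CPM in the AL rats and 1.36, 1.05 and 3.71 CPM in the HD rats. Rats 64 and 67 were below the AL group and rat 69 was within it (log2 fold change -1.03, SE 0.538, adjusted *P* = 0.551), and the value was -1.84 without rat 69. The muscle-type small Hsps Hspb6 and Hspb2, the latter named after its values were seen, had log2 fold changes of -0.20 (-0.024 without rat 61 and -0.33 without rat 71) and -0.38.

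**Figure D3:**
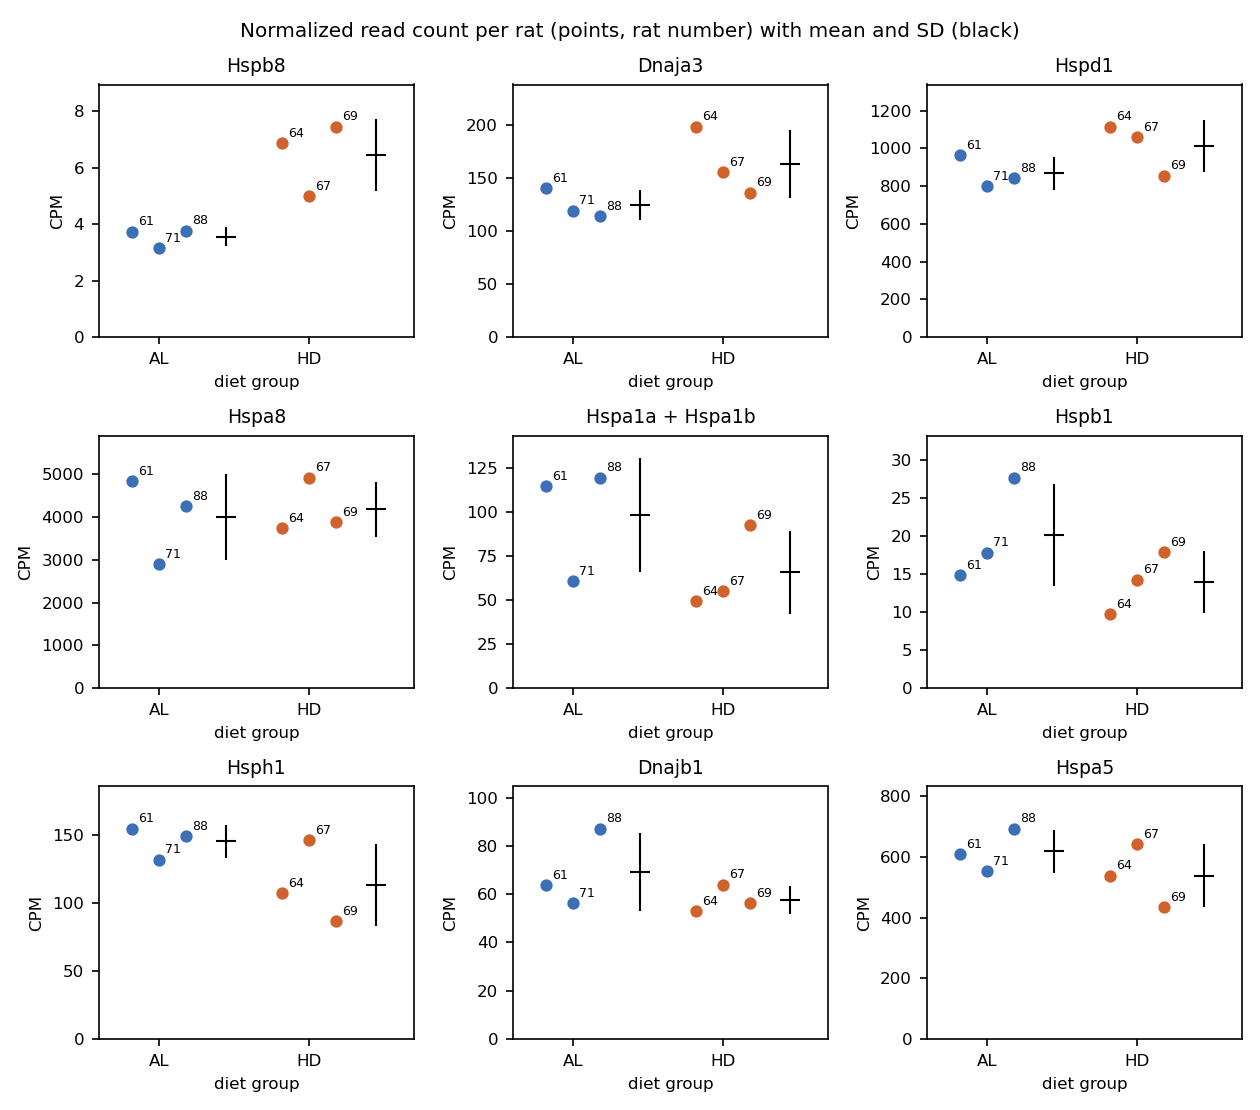
Normalized read count in CPM (vertical axes from 0) of 8 chaperones and the Hspa1a and Hspa1b sum in each rat, with rat numbers beside the points and the mean and SD of each diet group in black. For Hspb8 alone among the 9 panels, all HD rats (5.0 to 7.45 CPM) lie above all AL rats (3.16 to 3.77 CPM).

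The J-domain A genes of the cytosol encode the main partners of Hspa8. Dnaja1 measured 388, 303 and 300 CPM in the AL rats and 359, 444 and 218 CPM in the HD rats. Rats 67 and 69, of the same diet, were the highest and the lowest (log2 fold change 0.04, SE 0.255, or -0.04 with library size alone). Dnaja4 measured 43.3, 54.9 and 39.4 CPM in the AL rats and 83.3, 71.6 and 42.6 CPM in the HD rats. Rats 64 and 67 were above the AL group, and rat 69 was inside it (log2 fold change 0.52, SE 0.252, adjusted *P* = 0.525). The log2 fold change of Dnaja4 was 0.31 without rat 64 and 0.76 without rat 69.

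Dnajb1 (Hsp40), the heat-inducible partner of the Hsp70 genes, measured 63.9, 56.3 and 87.2 CPM in the AL rats and 52.9, 63.9 and 56.2 CPM in the HD rats. Rat 88 stood above the other 5, which overlapped (log2 fold change -0.26, SE 0.176, adjusted *P* = 0.661). Without rat 88 the value was -0.052, and without rat 71 it was -0.39. Over all J-domain A genes, which include Dnaja3 of mitochondria, 4 of 4 were higher (3 with library size alone), with a median log2 fold change of 0.27. Over all J-domain B genes 7 of 11 were higher (5 with library size alone), with a median of 0.04. Over all J-domain C genes 17 of 23 were higher (12 with library size alone), with a median of 0.09.

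In the endoplasmic reticulum, the stress element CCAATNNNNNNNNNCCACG, through which the unfolded protein response acts, was found by the same search in Hspa5, Hsp90b1 and Dnajc3. These are 3 of 56 chaperones with a promoter (5.36%), against 22 of 33469 promoters (0.0657%). Their windows (chr3:38452766-38453015, plus strand, chr7:23012294-23012543, minus strand and chr15:102432417-102432666, plus strand, GRCr8) are shown because these genes are the classical targets of that response. Capitals mark the element, which ends 24, 53 and 114 bases before the start, and Hsp90b1 holds it on both strands.
Hspa5: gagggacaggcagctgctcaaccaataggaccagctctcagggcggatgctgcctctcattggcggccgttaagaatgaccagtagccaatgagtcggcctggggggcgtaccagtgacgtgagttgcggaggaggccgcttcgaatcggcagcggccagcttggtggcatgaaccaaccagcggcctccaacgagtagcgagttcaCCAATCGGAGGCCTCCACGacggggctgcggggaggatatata
Hsp90b1: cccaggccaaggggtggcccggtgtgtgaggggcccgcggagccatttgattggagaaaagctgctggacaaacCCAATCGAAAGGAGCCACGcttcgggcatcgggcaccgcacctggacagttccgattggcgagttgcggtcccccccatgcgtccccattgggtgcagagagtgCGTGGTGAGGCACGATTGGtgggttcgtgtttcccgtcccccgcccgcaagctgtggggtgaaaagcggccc
Dnajc3: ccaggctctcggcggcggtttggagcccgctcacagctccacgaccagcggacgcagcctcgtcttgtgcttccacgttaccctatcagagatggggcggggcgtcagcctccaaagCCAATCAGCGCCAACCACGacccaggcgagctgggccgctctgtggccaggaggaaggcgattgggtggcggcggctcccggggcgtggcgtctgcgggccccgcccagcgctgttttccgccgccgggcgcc

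These 3 genes lay close to 0 or below it. Hspa5 (BiP), the Hsp70 of the endoplasmic reticulum, measured 608, 552 and 693 CPM in AL rats 61, 71 and 88, and 538, 642 and 433 CPM in HD rats 64, 67 and 69. Rat 69 was lowest and rat 88 highest, and the groups overlapped (log2 fold change -0.20, SE 0.173, adjusted *P* = 0.746). The value was -0.063 without rat 69, -0.10 without rat 88 and -0.35 without rat 67. Hsp90b1 (Grp94), the Hsp90 of that compartment, had a log2 fold change of -0.06 (SE 0.173), and Dnajc3, which also inhibits the kinase PERK, of 0.04 (SE 0.108, or -0.05 with library size alone). Dnajb9 (0.08) and Dnajb11 (0.04, or -0.04 with library size alone), lumenal J-domain partners of Hspa5, were as near to 0.

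The chaperones of the endoplasmic reticulum with larger values were scarce ones. Dnajb14, a J-domain protein of its membrane, measured 5.56, 5.10 and 5.10 CPM in the AL rats and 8.32, 6.60 and 6.43 CPM in the HD rats. Every HD rat was above every AL rat (log2 fold change 0.43, SE 0.212, unadjusted *P* = 0.0772, adjusted *P* = 0.525). Dnajc16 measured 17.1, 19.8 and 17.9 CPM in the AL rats and 28.8, 22.0 and 20.3 CPM in the HD rats. The groups did not overlap here either, although rats 69 and 71 were only just apart (log2 fold change 0.37, SE 0.168, adjusted *P* = 0.493, and 0.21 without rat 64). Hspa13, an Hsp70-like protein of microsomes, had a log2 fold change of 0.35 (SE 0.261, and 0.17 without rat 64 or 0.19 without rat 61) and overlapping groups. In TPM, Dnajb14 (5.56), Hspa13 (6.32) and Dnajc16 (12.6) were far below Hspa5 (350).

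Mitochondria were the compartment in which all chaperones had a higher fitted level in the HD group. Dnaja3 (Tid1), the J-domain partner of Hspa9 in the matrix, lies on chromosome 10 of rn5 (chr10:9825849-9850500, 11 exons). It measured 140, 119 and 114 CPM in AL rats 61, 71 and 88, and 198, 155 and 136 CPM in HD rats 64, 67 and 69. Rats 64 and 67 were above the AL group, while rat 69 lay just under rat 61. The log2 fold change was 0.39 (SE 0.164, unadjusted *P* = 0.0467, adjusted *P* = 0.466), and 0.23 without rat 64. Its unadjusted *P* value was below 0.05 when rat 61 or rat 69 was left out but not when any other rat was, and not with RLE normalization or library size alone. The longer of its 2 transcripts (1705 bases) measured 112, 111 and 101 TPM in the AL rats and 157, 122 and 120 TPM in the HD rats. The shorter (1443 bases) was scarcer, at 9.39 to 13.5 TPM in the AL group and 12.6 to 20.2 TPM in the HD group.

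Hspd1 (Hsp60) forms the chaperonin ring of the matrix. It measured 966, 799 and 841 CPM in the AL rats and 1115, 1061 and 855 CPM in the HD rats. Rats 64 and 67 were above the AL group, and rat 69 was inside it (log2 fold change 0.22, SE 0.150, adjusted *P* = 0.669). It was 0.14 without rat 64 and 0.33 without rat 69. Hspe1 (Hsp10), its lid, measured 494, 318 and 386 CPM in the AL rats and 449, 518 and 340 CPM in the HD rats. The groups of Hspe1 overlapped widely (log2 fold change 0.13, SE 0.213, adjusted *P* = 0.889), and its value was -0.02 when rat 71 or rat 67 was left out. In TPM, Hspe1 exceeded Hspd1 1.39 to 1.79 times in every rat. Hspa9 (mortalin), which pulls imported proteins into the matrix, measured 758, 603 and 657 CPM in the AL rats and 868, 784 and 653 CPM in the HD rats. Rat 64 was highest and rat 71 lowest, and rat 69 lay within the AL group (log2 fold change 0.19, SE 0.154, adjusted *P* = 0.731). It was 0.095 without rat 64, 0.12 without rat 71 and 0.30 without rat 69.

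The other 4 mitochondrial J-domain genes are named here to complete the compartment, after their values were seen. Dnajc11, tied to the folds of the inner membrane, measured 49.2, 54.2 and 49.8 CPM in the AL rats and 61.0, 57.1 and 55.1 CPM in the HD rats. All its HD rats were above all AL rats, by a small margin (log2 fold change 0.18, SE 0.101, adjusted *P* = 0.596). Dnajc15, of the import motor, Dnajc4 and Dnajc30 had log2 fold changes of 0.26, 0.25 and 0.22, with overlapping groups. The 8 values ran from 0.13 to 0.39, and no mitochondrial chaperone passed an adjusted *P* value of 0.05. Rat 71 or rat 88 was the lowest rat for 7 of the 8, and rat 64 the highest for 5, whereas rat 69 was neither for any of them.

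Outside these compartments, Dnajc22 (0.27), Dnajc18 (0.20) and Dnajc28 (0.05) had log2 fold changes above 0 and Dnajc14 (-0.00076) and Hspb11 (-0.14) below it. They too are named after their values were seen, and all had overlapping groups.

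Single rats stood at the end of the range for many chaperones. Rat 69 of the HD group was the lowest rat for 22 of 64 chaperones (34.4%), compared with 17.1% of all tested genes. Rat 67 of the same group was the highest for 20 (31.3%), compared with 14.0% of all genes. In the cytosol and nucleus rat 69 was lowest for 15 of 40, and in the endoplasmic reticulum for 5 of 11. The SD of a chaperone's log2 level within a diet group had a median of 0.220, near the 0.218 of all genes. It was lowest for the scarce Dnajb13 (0.0511) and highest for Hspbap1 (0.667). The low count of Dnajb13 (1.38 TPM, fitted SE 0.293) limits what its SD shows. Hspa12b was low in rat 64 alone (3.82 CPM, against 6.59 to 9.08 CPM in the other rats).

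**Figure D4:**
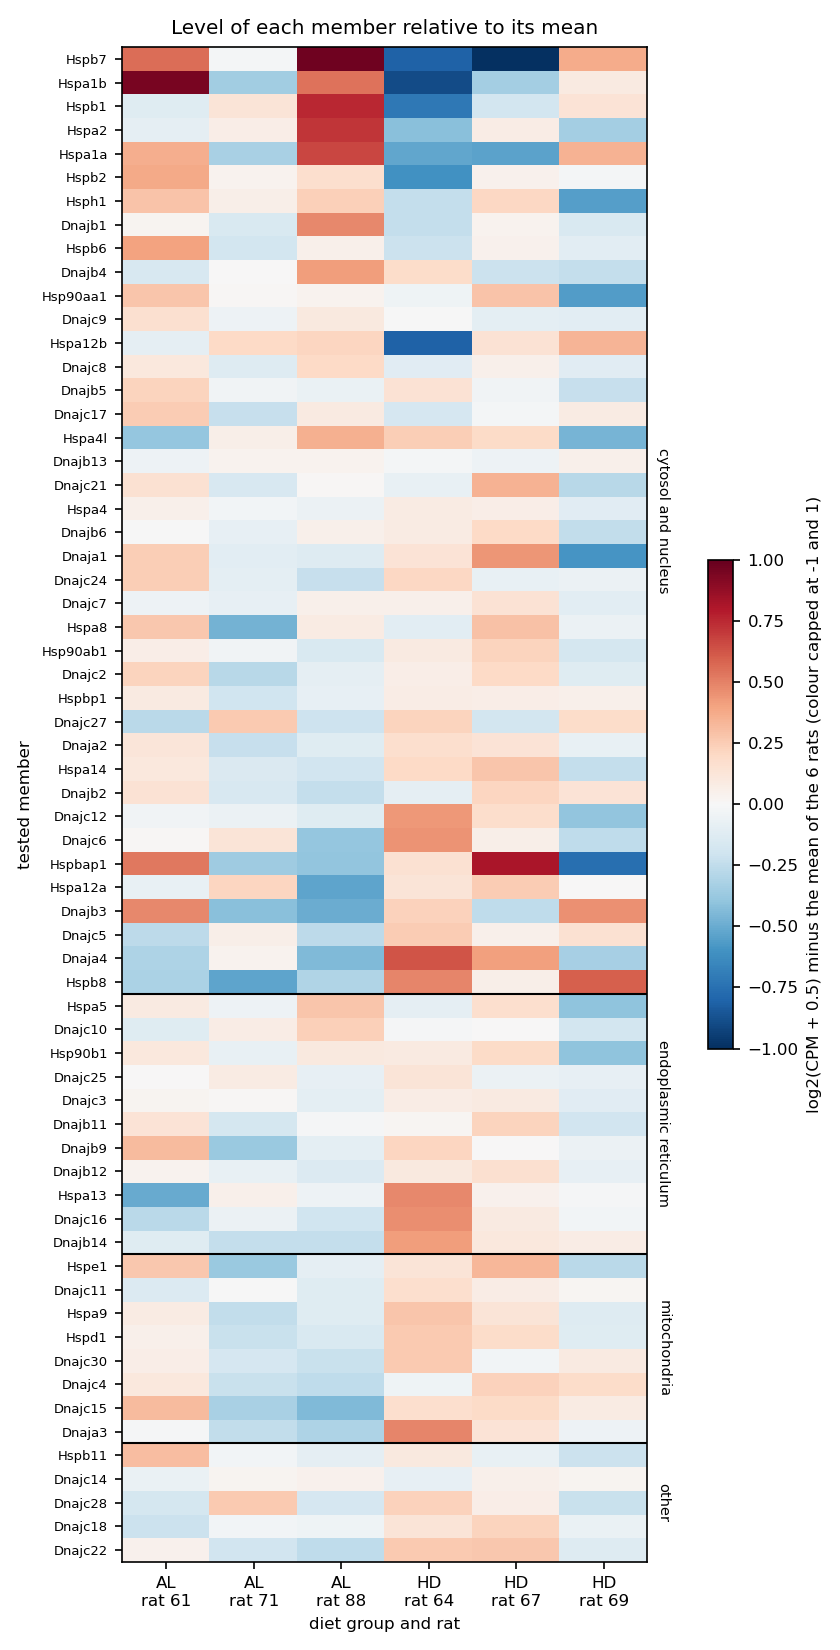
Log2 level of each tested chaperone relative to its mean over the 6 rats (color, capped at -1 and 1), with rats in columns by diet group and genes in rows by compartment and fold change. Rat 69 is blue for many cytosolic genes, being lowest for 15 of 40, and most of the mitochondrial block is blue in rats 71 and 88 and red in rat 64.

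Lists of genes that work with the chaperones were described in the same way. Of 17 tested heat shock factor targets, 12 of them chaperones counted above, 6 were higher and 11 lower, with a median log2 fold change of -0.08 (4 and 13 with library size alone). The factors Hsf1 and Hsf2 and the factor-binding protein Hsbp1 were between -0.05 and 0.12. Of 20 tested genes of the unfolded protein response, 7 were higher and 13 lower (median -0.05), or 4 and 16 with library size alone, and the 13 that are not chaperones of these families had 3 higher and 10 lower (median -0.05). Of 11 tested genes of mitochondrial stress, 11 were higher (median 0.19), or 9 with library size alone (median 0.11). The 7 among them outside these families, such as the protease Lonp1 (0.15), the mitochondrial Hsp90 gene Trap1 (0.22) and the Hspa9 exchange factor Grpel1 (0.22), were all higher (median 0.19), or 5 of 7 with library size alone. At an unadjusted *P* value below 0.05 stood 1 of 17 heat shock factor targets (Bag3, higher), 0 of 20 genes of the unfolded protein response and 1 of 11 of mitochondrial stress (Dnaja3, higher), where 4.66% of all genes were higher and 5.94% lower.

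Of 23 tested co-chaperones and exchange factors, 12 were higher and 11 lower (median 0.02), or 7 and 16 with library size alone. Bag3 measured 50.8, 50.6 and 59.5 CPM in the AL rats and 77.2, 72.8 and 56.9 CPM in the HD rats. Rats 64 and 67 were above the AL group, and rat 69 was within it (log2 fold change 0.36, SE 0.145, unadjusted *P* = 0.0399, adjusted *P* = 0.455). Sgta, which guides tail-anchored proteins, measured 87.4, 87.5 and 84.4 CPM in the AL rats and 118, 98.7 and 97.0 CPM in the HD rats, with no overlap (log2 fold change 0.27, SE 0.114, unadjusted *P* = 0.0451, adjusted *P* = 0.462). The 8 subunits of the cytosolic chaperonin CCT were spread around 0, with 3 higher and 5 lower (median -0.01), or 2 and 6 with RLE and 1 and 7 with library size alone. Family members under other symbols, such as the small Hsp Cryab and the Hsp110 of the endoplasmic reticulum Hyou1, had 2 higher and 4 lower of 6 tested (median -0.02).

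Markers of kidney cell types were present as the tissue label states, and several lists stood apart between the groups, in the same direction under all scalings tried. Proximal tubule markers summed to 4208 to 5720 CPM in the AL group and 6079 to 8080 CPM in the HD group, and 5 of 6 were higher (median log2 fold change 0.64). Slc34a1 (0.70), Slc22a6 (1.07) and Slc13a3 (0.82) had no overlap, whereas Lrp2 (0.19), Cubn (-0.05) and Slc5a2 (0.57) overlapped. Slc5a2 reached the minimum for testing only in HD rats 67 and 69. Genes of the inner medulla and of the osmotic response were lower in 5 of 5 (median -1.42). These were the urea transporter Slc14a2, Akr1b1, Slc5a3, Slc6a12 and the factor Nfat5. They summed to 322 to 827 CPM in the AL group and 148 to 290.0 CPM in the HD group. Each of the 5 had an unadjusted *P* value below 0.05, where 5.94% of all genes were lower. Their adjusted *P* values ran from 0.368 to 0.456. When single rats were left out, Slc5a3 ran from -2.86 to -0.90 and Akr1b1 from -3.14 to -1.14. For Slc14a2, Akr1b1 and Slc5a3 the groups overlapped. Akr1b1 measured 23.3, 99.0 and 390 CPM in AL rats 61, 71 and 88, and 23.3 to 35.3 CPM in the HD rats. Podocyte markers were higher in 6 of 6 (median 2.43), at 54.9 to 128 CPM against 193 to 417 CPM. Macrophage markers were lower in 5 of 5 (median -1.22), at 33.3 to 95.1 CPM against 21.2 to 36.5 CPM. Lymphocyte markers were lower in 3 of 3 tested (median -2.47), at 2.18 to 6.60 CPM against 0.0849 to 1.02 CPM. These 3, Cd3e, Cd3g and Cd2, had low counts and reached the minimum for testing only in AL rat 71. Their lower side is therefore partly set by the filter. The remaining lists, with their median log2 fold changes, were thick ascending limb (-0.14), principal cell (-0.23), intercalated cell (0.27), endothelium (-0.41), smooth muscle (0.92) and distal tubule (2.93, 1 gene tested). The part of the shifts in these marker lists in the values of Hspa1a, Hspa1b, Hspb1, the other small Hsps and the mitochondrial chaperones was not tested.

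**Figure D5:**
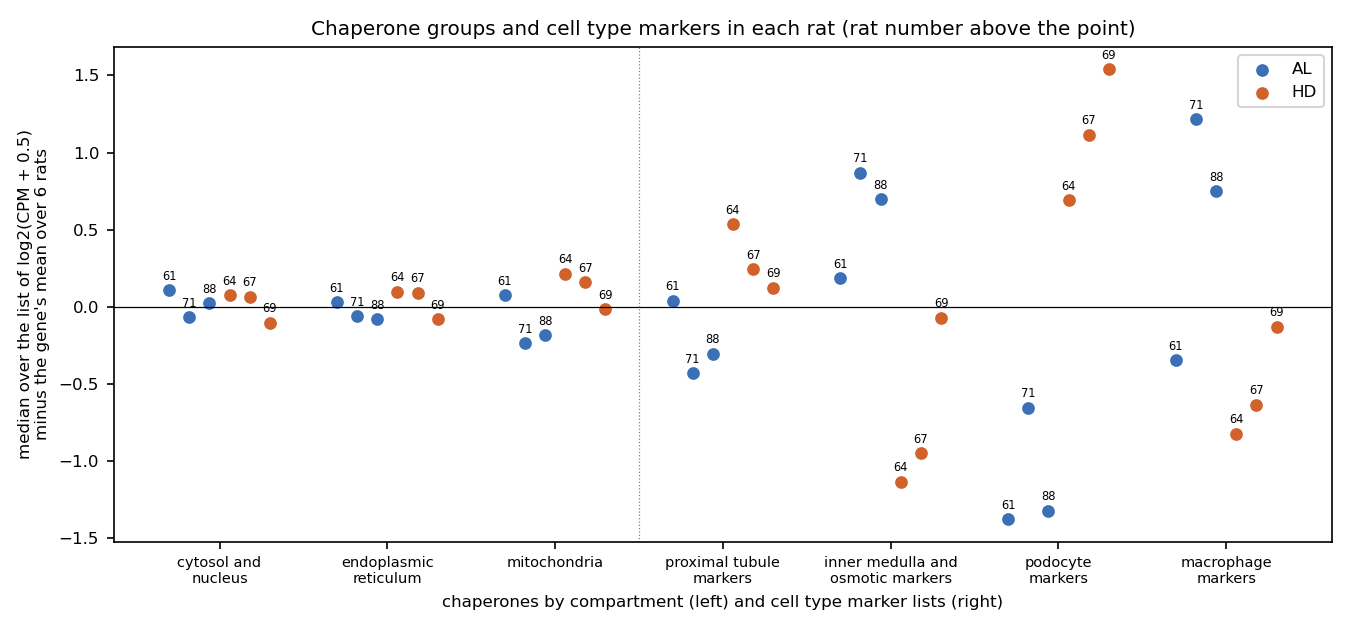
Median over a list of the log2 level minus each gene's mean over the 6 rats (vertical axis), for chaperones of 3 compartments (left) and 4 cell type marker lists (right), with 1 point per rat and its number above. The chaperone medians stay between -0.24 and 0.21, while for the proximal tubule, inner medulla and podocyte lists the rats of the diets do not overlap.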

How the data were processed

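Kidney RNA of 6 rats (3 AL, 3 HD) was sequenced, 1 library per rat, and the diet in the labels gave the groups. The authors assigned reads to transcripts with RSEM 1.1.15 and gene models of rn5, and deposited for every transcript an estimated count, which is not normalized, and a TPM value, scaled by the authors to transcript length and library size. RSEM was run by the authors with default parameters, which ignore strand. Filters on the reads are not given in the sources used here. FPKM values were not used.

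For each gene the estimated counts were summed over transcripts and rounded, and genes with at least 30 in at least 1 rat were tested with edgeR 4.0.16 (quasi-likelihood test, TMM) in R 4.3.3, with diet as the only factor and Benjamini-Hochberg adjustment over all 11553 genes. The threshold was an adjusted *P* value of 0.05. The SE is the absolute log2 fold change divided by the square root of F. TPM values of transcripts were summed per gene. Nothing says that rats shared a litter or cage, and *P* values set the diet difference against the spread between these rats. The fit was tested on simulated data with changes larger than those of most chaperones, so differences as small as theirs were not covered. Tables and plots were made in Python 3.11.15 with matplotlib 3.10.9, numpy 2.4.6 and pandas 2.3.3.

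Named with values were 25 core chaperones, those with an unadjusted *P* value below 0.05, the 5 highest and the 5 lowest by log2 fold change and the 5 most abundant by TPM, and genes of the other lists at an unadjusted *P* value below 0.05. Others are named to say what a list holds or, where said, after their values were seen. The chaperones, compartments and lists were chosen with earlier results of these data known, so counts and medians describe them and no test was made over a list. Alternatives were DESeq2 1.42.0, RLE, library size alone, no count minimum, at least 10 in every rat, RSEM's posterior mean count, robust edgeR and leaving out each rat.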

Additional observations from a re-analysis of the deposited data

How the results depend on the processing

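Across 28 named chaperones and 7 alternatives that kept all rats, the direction was kept except with library size alone, where Dnaja1 (-0.044), Dnajb11 (-0.041), Dnajc3 (-0.047), Hspa4 (-0.057) and Hspa8 (-0.0053) turned below 0 on the log2 scale. That setting shifted the median of all genes to -0.07 and left 30 chaperones higher and 34 lower. Counting Hspa1a and Hspa1b as 1 gene was added after seeing the data. Genes at an adjusted *P* value of 0.05 numbered 182 with DESeq2 and 2 with no count minimum, and 0 to 4 when single rats were left out. At an unadjusted *P* value below 0.05, 538 genes were higher (317 with library size alone, 257 to 730 when single rats were left out) and 686 lower (329 to 1048 when single rats were left out). Chaperones higher at that value numbered 1 with RLE and 1 with library size alone, where Dnaja3 dropped out, and 1 to 7 when single rats were left out. Chaperones lower numbered 1 with DESeq2 and 2 with library size alone, and 0 to 3 when single rats were left out. Leaving out single rats, the median log2 fold change ran from -0.077 to 0.096 in the cytosol and nucleus, from 0.0093 to 0.14 in the endoplasmic reticulum and from 0.14 to 0.31 in mitochondria. Of the 28 named chaperones, 9 crossed 0 when single rats were left out: Dnaja1 (-0.20 to 0.29), Dnajb11 (-0.070 to 0.14), Dnajb9 (-0.067 to 0.29), Hsp90aa1 (-0.39 to 0.022), Hsp90b1 (-0.18 to 0.10), Hspa4 (-0.0085 to 0.091), Hspa4l (-0.20 to 0.19), Hspa8 (-0.13 to 0.22) and Hspe1 (-0.019 to 0.31). Chaperones outside the 28 crossed 0 as well, such as Hspa12b (-0.39 to 0.14) and Hspbap1 (-0.24 to 0.60), named here after their values were seen. The mitochondrial chaperones were higher in 8 of 8 under each of the 13 alternatives except without rat 71 or without rat 67 (7 of 8). The cause of these shifts was not tested. No paired analysis was possible because the labels number each rat once, so that no number is shared between the groups. Precision is limited by 3 rats in each group, and the low counts of Hspb7 and Hspb8 limit these genes further.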

Other observations

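Families of mitochondrial genes outside the 71 were described after the values of the mitochondrial chaperones had been seen. Of 68 tested mitochondrial ribosomal proteins (Mrpl and Mrps symbols), 56 had a higher fitted level in the HD group and 12 a lower one, with a median log2 fold change of 0.07 (32 higher and 36 lower with library size alone). Of 20 tested subunits of the mitochondrial translocases (Timm and Tomm symbols), 15 were higher and 5 lower (median 0.07), or 10 and 10 with library size alone, and of 35 tested complex I subunits (Nduf symbols), 22 were higher and 13 lower (median 0.03), or 12 and 23. The median of the 8 mitochondrial chaperones was 0.22, and 0.14 with library size alone. No difference between these families was tested.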
